A study of Mus musculus with 6 samples.

Results

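The 9 genes described here code for parts of the machinery that moves proteins between the endoplasmic reticulum (ER) and the Golgi: the COPII coat genes Sec13, Sec23b, Sec24d and Sec31a, the KDEL receptor genes Kdelr1, Kdelr2 and Kdelr3, and the p24 cargo receptor genes Tmed2 and Tmed10. They were chosen by symbol, matched to their Ensembl mouse identifiers, and are 9 of the 27998 genes of the deposited matrix. The choice was made with earlier results of these data known, so counts set beside all genes describe these genes and are no independent test. Droplet sequencing profiled single cells of differentiated mouse intestinal organoid monolayers in 3 groups of 2 libraries, which the series text calls biological replicates. Controls received DMSO, and the other groups received tunicamycin at 0.5 µg/ml for 13 h or for 25 h, starting on differentiation day 3 with harvest on day 4. The 13 h cells stood for 12 h in DMSO before the drug was added. In all 3 groups, controls included, the strain is given as Rosa26-floxed STOP-Cas9 crossed with cmv-cre, in B6, and no guide or other agent is named. The tissue tag says small intestine while the growth protocol speaks of colonic spheroids, which the sources used here do not settle.

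Tunicamycin inhibits the enzyme made from Dpagt1, which starts the glycan that is later attached to new glycoproteins in the ER, and it is widely used to cause ER stress. COPII vesicles carry cargo out of the ER: the small GTPase Sar1 recruits an inner layer of Sec23 and Sec24, where Sec24 binds cargo, and Sec13 with Sec31 forms the outer cage. KDEL receptors catch escaped ER residents, such as the chaperone BiP, in the Golgi and return them in COPI vesicles, and p24 proteins such as Tmed2 and Tmed10 cycle between ER and Golgi and help select cargo. Enterocytes are the absorptive cells of the gut epithelium, goblet cells secrete mucus, and tuft cells are rare chemosensory cells.

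Promoter windows from RefSeq (GRCm38.p6), each 250 bases before to 50 bases after a start site, were matched for 7 of the 9 genes, 9 windows in all, and those of Kdelr2 and Tmed2 were not analysed here. Both strands were searched for sequences named in work on ER stress. The unfolded protein response element core TGACGTGG was in 222 of all 32851 windows (0.676%), and among the 7 genes searched in those of Sec24d and Kdelr3. At 13 h both had the highest fold changes of the 9 genes in enterocytes, and whether core and response are linked was not tested. Their windows are shown because they hold the core, from 250 bases before the RefSeq start to the end of the core, which is in capitals. The Sec24d stretch is chr3:123267246-123267477 and the Kdelr3 stretch is chr15:79516158-79516385, both on the + strand.
Sec24d: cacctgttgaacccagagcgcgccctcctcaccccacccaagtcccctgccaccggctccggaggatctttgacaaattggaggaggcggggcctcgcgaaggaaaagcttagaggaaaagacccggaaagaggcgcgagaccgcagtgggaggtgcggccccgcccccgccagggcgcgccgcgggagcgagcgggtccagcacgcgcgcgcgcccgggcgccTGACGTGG
Kdelr3: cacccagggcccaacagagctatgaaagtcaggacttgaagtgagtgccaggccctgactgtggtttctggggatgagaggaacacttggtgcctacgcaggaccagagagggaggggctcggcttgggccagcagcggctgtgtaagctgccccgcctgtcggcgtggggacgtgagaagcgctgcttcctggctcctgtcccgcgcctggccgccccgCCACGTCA
The Sec24d core begins 26 bases before the RefSeq start and reads forward, while the Kdelr3 core begins 30 bases before and lies on the other strand, so that the printed strand reads CCACGTCA. GENCODE starts Sec24d 41 bases further upstream, so by that annotation the core lies inside the gene. The shorter TGACGT, found in 7.51% of all windows, lies inside both cores and was also 9 bases before a Sec23b start. No window of the 7 genes held the ER stress elements ERSE (0.119% of all windows) and ERSE-II (ATTGGNCCACG, 0.0365%) or TTGCATCA, a core bound by ATF4 with C/EBP proteins (0.895%). The short CCACG, part of ERSE and of the reverse of TGACGTGG, was in 32.8% of all windows and in windows of Sec13, Sec24d, Sec31a, Kdelr3 and Tmed10. A match here is a description of letters, and no binding was measured.

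After cells above 25% mitochondrial counts were removed, 5026 of 5122 cells remained, from libraries of 9462248 to 19772274 deposited unique molecular identifiers (UMIs). The authors' class in each cell name gave 426 to 1046 enterocytes, 75 to 109 goblet cells and 12 to 27 cells named tuft per library. Of Hspa5, Ddit3 and Dpagt1, used to check the treatment, 3 of 3 rose in enterocytes and 2 of 3 in goblet cells at each time. Hspa5, which encodes BiP, was 4.76 ± 0.11 higher on the log2 scale in enterocytes at 13 h (SE, edgeR, adjusted p = 2.80e-13) and 3.06 ± 0.10 higher in goblet cells (adjusted p = 4.79e-14). Summed goblet markers made up 79666 to 197050 CPM (normalised UMI counts) in goblet cells and 2350 to 3925 in enterocytes, with 9 of 10 detected and Retnlb at 0 in both classes. Summed enterocyte markers made up 3735 to 7366 CPM in enterocytes, with 14 of 14 detected, and 1399 to 4072 in goblet cells. Of 6 immune markers, Ptprc and Cd3e were at 0 in every class, while 4 were detected in enterocytes and 3 in each other class. Their summed level was 0.573 to 1.53 CPM in enterocytes, 0.949 to 5.40 in goblet cells and 0 to 11.5 in the cells named tuft. Mitochondrial counts were 8.43% and 8.84% after 13 h and 7.52% and 7.24% after 25 h, against at least 8.99% in DMSO. Of 11 tested enterocyte markers, 11 fell in enterocytes at 13 h and 10 at 25 h, against 2655 and 2696 of all 11145 genes tested. The part of these shifts in the results below was not tested.

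In enterocytes, 8 of the 9 genes rose at 13 h of tunicamycin and 0 fell, and Sec13 alone did not pass the test. At this time 23.8% of all 11145 genes tested rose and 2655 fell. The median log2 fold change of the 9 genes was 0.68, against 0.01 over all genes tested. At 25 h the same count of 8 rose and 0 fell, while 26.1% of all genes tested rose and 2696 of the 11145 fell. The median was 0.41 against 0.03. The 13 h and 25 h comparisons use the same DMSO libraries. Levels are in CPM after TMM scaling within the class, errors after ± are standard errors of the fit (SE), and tests are edgeR's quasi-likelihood F test with Benjamini-Hochberg adjustment over all genes tested, with a threshold of 0.05. For all 9 genes, Sec13 included, the libraries of either time lay outside the range of the DMSO libraries, as they did for 74% of all genes tested at 13 h and 75.1% at 25 h, so this separation sets the 9 genes little apart.

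The COPII coat genes moved by very different amounts. Sec24d, a cargo-binding subunit of the inner coat (chromosome 3, 123267455 to 123365641, GRCm38), was at 7.69 and 11.0 CPM in the DMSO enterocytes, at 30.7 and 30.8 at 13 h, and at 17.2 and 17.6 at 25 h. Both treated groups were above both controls, with the 13 h libraries highest. This is a log2 fold change of 1.72 ± 0.12 at 13 h (SE, adjusted p = 3.02e-08) and 0.90 ± 0.14 at 25 h (adjusted p = 0.000113). Sec23b, the partner subunit that activates the Sar1 GTPase (chromosome 2, 144556229 to 144590749), was at 21.5 and 21.1 CPM in DMSO, 37.6 and 38.9 after 13 h, and 28.3 and 28.3 after 25 h. Its order of groups was the same as for Sec24d, and its log2 fold changes were 0.84 ± 0.07 (adjusted p = 1.54e-07) and 0.41 ± 0.08 (adjusted p = 0.000501).

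The outer cage showed less. Sec31a, its rod-forming subunit (chromosome 5, 100361649 to 100416234), was at 78.0 and 78.6 CPM in DMSO, 111 and 114 after 13 h, and 90.5 and 94.2 after 25 h. Its log2 fold changes were 0.53 ± 0.05 (adjusted p = 6.52e-07) and 0.24 ± 0.05 (adjusted p = 0.00135). Sec13, which shares the cage and is also a subunit of the nuclear pore (chromosome 6, 113728062 to 113740743), was at 59.8 and 61.5 CPM in DMSO, 64.4 and 64.8 after 13 h, and 59.7 and 57.1 after 25 h. These libraries did not overlap between groups, yet the differences were 0.09 ± 0.05 (adjusted p = 0.167) and -0.05 ± 0.06 (adjusted p = 0.448). With library totals in place of TMM the 13 h difference of Sec13 was 0.14 and passed (adjusted p = 0.0481). With cells limited to 10% mitochondrial counts its 25 h difference was -0.17 and passed (adjusted p = 0.0480).

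The 3 KDEL receptor genes each followed their own time course. Kdelr3 (chromosome 15, 79516411 to 79527739) was counted rarely, with 35 and 38 UMIs in the DMSO enterocytes, 88 and 141 after 13 h, and 68 and 75 after 25 h. Its level was 2.05 and 2.32 CPM in DMSO, 7.23 and 10.6 after 13 h, and 8.56 and 8.65 after 25 h, so all 4 treated libraries lay above both controls. The log2 fold change of Kdelr3 was 2.03 ± 0.21 at 13 h (4.09-fold, adjusted p = 2.60e-06) and 1.97 ± 0.23 at 25 h (adjusted p = 7.19e-06).

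Kdelr2 (chromosome 5, 143403838 to 143421901) was at 150 and 153 CPM in DMSO, 243 and 243 after 13 h, and 182 and 195 after 25 h. It rose by 0.68 ± 0.05 on the log2 scale at 13 h (adjusted p = 3.58e-08) and was 0.32 ± 0.05 above DMSO at 25 h (adjusted p = 8.55e-05). Kdelr1 (chromosome 7, 45872772 to 45883732) moved in the other order, from 153 and 153 CPM in DMSO to 185 and 185 after 13 h and 228 and 219 after 25 h. Its log2 fold change was 0.28 ± 0.05 at 13 h (adjusted p = 0.000166) and 0.55 ± 0.05 at 25 h (adjusted p = 2.17e-07). Kdelr1 was thus highest in the later libraries and Kdelr2 in the earlier ones, with no overlap between groups for either gene.

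Both p24 genes rose and stayed above DMSO. Tmed2, the p24 beta subunit (chromosome 5, 124540695 to 124550506), was at 212 and 222 CPM in DMSO, 437 and 441 after 13 h, and 381 and 356 after 25 h. Its log2 fold change was 1.02 ± 0.05 at 13 h (2.03-fold, adjusted p = 6.88e-10) and 0.76 ± 0.05 at 25 h (adjusted p = 1.55e-08). Tmed10, the p24 delta subunit (chromosome 12, 85340614 to 85374847), was at 285 and 298 CPM in DMSO, 389 and 397 after 13 h, and 360 and 378 after 25 h. It rose by 0.43 ± 0.05 (adjusted p = 3.68e-06) and 0.34 ± 0.05 (adjusted p = 3.55e-05), with no overlap of treated and control libraries for either gene.

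**Figure D1:**
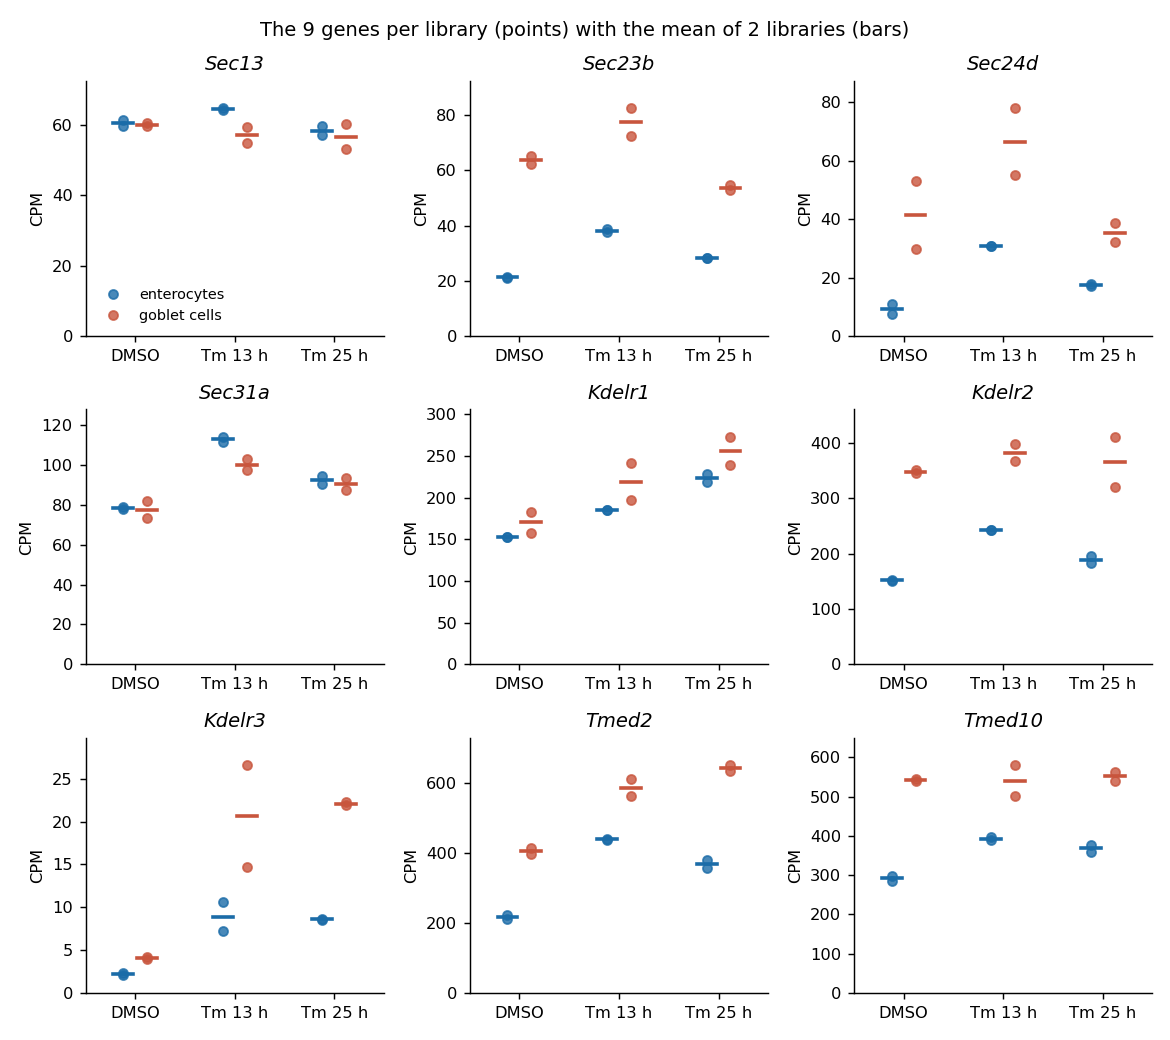
Level of each gene in CPM (linear axis from 0, scaled within each class) in every library, by group and class, where points are libraries and bars are means of 2 libraries. In enterocytes Sec24d goes from 7.69 and 11.0 CPM to 30.7 and 30.8 at 13 h, and Sec13 stays between 57.1 and 64.8.

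Between 13 h and 25 h the enterocyte levels of most of these genes came down while Kdelr1 went on rising. Of the 9 genes, 5 fell (Sec24d, Sec23b, Kdelr2, Sec31a and Tmed2), 1 rose and 3 did not pass, against 10.9% of all genes tested falling and 10.4% rising. The median difference was -0.25, against 0.00 over all genes. Sec24d fell by 0.81 ± 0.12 on the log2 scale (SE, edgeR, adjusted p = 0.000259), Sec23b fell by 0.43 ± 0.07 (adjusted p = 0.000702) and Kdelr2 fell by 0.36 ± 0.05 (adjusted p = 0.000104). For Sec31a the difference was -0.29 ± 0.05 (adjusted p = 0.00106) and for Tmed2 -0.25 ± 0.05 (adjusted p = 0.00195). Kdelr1 rose by 0.27 ± 0.05 (adjusted p = 0.000742). The values of the others were -0.06 ± 0.19 for Kdelr3, whose libraries overlapped, -0.09 ± 0.05 for Tmed10 (adjusted p = 0.193) and -0.15 ± 0.06 for Sec13 (adjusted p = 0.0892). At most 10% mitochondrial counts per cell, Tmed10 also passed (-0.18, adjusted p = 0.0236).

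In goblet cells fewer of the genes passed. At 13 h Kdelr3, Sec24d and Tmed2 rose, 3 of 9 against a background of 10.8% of 7839 genes, and at 25 h Kdelr1, Kdelr3 and Tmed2 rose, 3 of 9 against 15.8%. The medians of the 9 genes were 0.36 and 0.07, against -0.01 and 0.00 over all genes tested. Summed goblet cells held 1052495 to 1425291 UMIs per library, against 7760117 to 17429023 in enterocytes, and the biological coefficient of variation was 0.0788 against 0.0418. With enterocyte sums thinned to the goblet totals, an alternative added after the data were seen, 6 of the 9 genes were called in enterocytes at 13 h, 4 at 25 h and 2 between the times, in place of 8, 8 and 6. These counts come from a single random draw. Of the goblet markers tested in goblet cells, 6 of 9 fell at 13 h and 7 of 9 at 25 h, against 905 and 1256 of all 7839 genes tested. Their summed level went from 197050 and 183509 CPM in DMSO to 113544 and 121716 after 13 h and 79666 and 96094 after 25 h. What part this shift has in the values below was not tested.

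Kdelr3 had 5 and 5 UMIs in the DMSO goblet cells, 16 and 29 after 13 h, and 33 and 28 after 25 h. Its level of 4.20 and 3.93 CPM in DMSO became 14.7 and 26.6 after 13 h and 22.3 and 21.9 after 25 h, with all treated libraries above the controls. The log2 fold change was 2.32 ± 0.44 (SE, adjusted p = 0.000711) and 2.42 ± 0.42 (adjusted p = 0.000172). Tmed2 was at 415 and 397 CPM in DMSO, 612 and 562 after 13 h, and 651 and 635 after 25 h, a rise of 0.53 ± 0.10 (adjusted p = 0.000757) and 0.66 ± 0.10 (adjusted p = 4.15e-05). Kdelr1 was at 183 and 158 CPM in DMSO, 241 and 197 after 13 h, and 239 and 273 after 25 h. Its difference was 0.36 ± 0.14 at 13 h, which did not pass (adjusted p = 0.0629) but did without 13 h replicate 2 (0.50, adjusted p = 0.0355), and 0.59 ± 0.13 at 25 h, which passed (adjusted p = 0.00183).

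Sec24d varied between goblet libraries of the same group. It was at 52.9 and 29.9 CPM in DMSO, 55.0 and 77.9 after 13 h, and 38.6 and 32.1 after 25 h, from 38 to 85 UMIs. The 13 h rise was 0.69 ± 0.24 (SE, adjusted p = 0.0404), and 25 h against DMSO was -0.21 ± 0.25 (adjusted p = 0.578). Without DMSO replicate 2 the 13 h value was 0.32 (adjusted p = 0.438), without 13 h replicate 2 it was 0.42 (adjusted p = 0.358), and without 25 h replicate 2 it was 0.69 (adjusted p = 0.0524). The call was also lost with DESeq2 (adjusted p = 0.235), at most 10% mitochondrial counts (adjusted p = 0.0643) and without high-UMI cells (0.48, adjusted p = 0.197), so in 6 of 13 alternatives. Between 13 h and 25 h Sec24d fell by 0.90 ± 0.24 (adjusted p = 0.0387), 1 of 9 genes against 1.47% of all genes falling. That call was also lost without 13 h replicate 2 (-0.63), without 25 h replicate 1 (-1.05) and without 25 h replicate 2 (-0.79), fits that leave a single library in a group. It was lost as well at most 10% mitochondrial counts (-0.88, adjusted p = 0.0738) and without high-UMI cells (-0.81, adjusted p = 0.0993). This makes 5 of the 12 alternatives that gave an adjusted p.

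The other genes gave no call in goblet cells at either time. Tmed10 was at 540 and 544 CPM in DMSO, 580 and 501 after 13 h, and 563 and 540 after 25 h, with all groups overlapping. Kdelr2 was at 351 and 344 CPM in DMSO, 366 and 397 after 13 h, and 320 and 410 after 25 h (0.13 ± 0.12 and 0.07 ± 0.12, SE). Sec23b was at 62.2 and 65.3 CPM in DMSO, 72.4 and 82.5 after 13 h, and 52.8 and 54.7 after 25 h (0.28 ± 0.16 and -0.25 ± 0.17). No difference of Sec23b between groups passed. Sec31a was at 73.1 and 81.8 CPM in DMSO, 103 and 97.2 after 13 h, and 93.4 and 87.6 after 25 h (0.37 ± 0.15, adjusted p = 0.0908, and 0.22 ± 0.15). For Sec13 the levels were 59.6 and 60.5 CPM in DMSO, 55.0 and 59.6 after 13 h, and 60.2 and 53.2 after 25 h. With library totals in place of TMM, which moved the median of all genes by 0.16 at 13 h, Sec31a (0.53, adjusted p = 0.0169) and Kdelr1 (0.53, adjusted p = 0.00628) also passed at 13 h. Relative to that median these 2 values are again about as before.

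**Figure D2:**
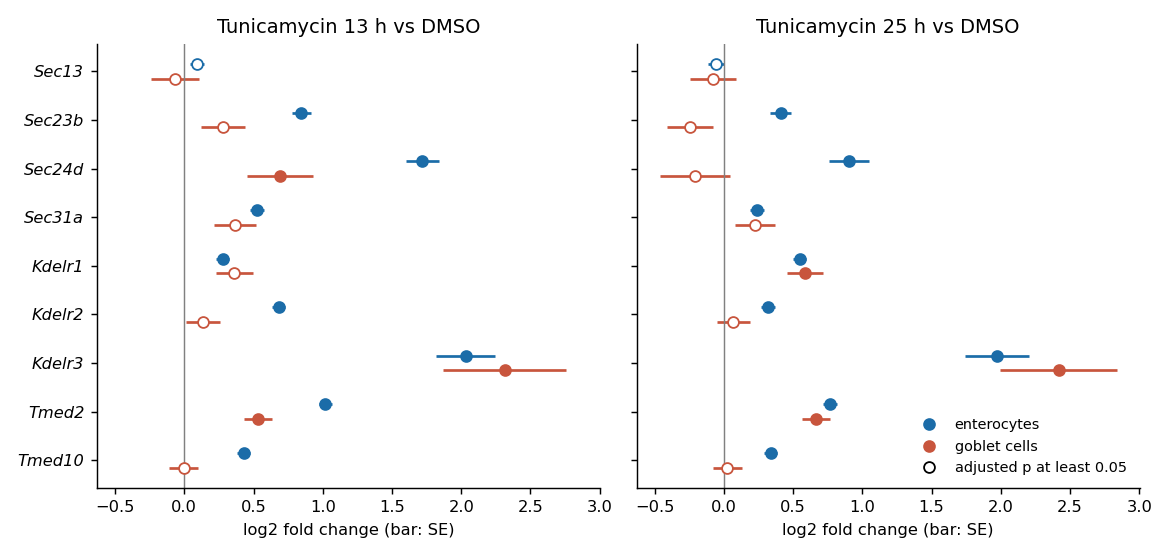
Log2 fold change of each gene against DMSO at 13 h (left) and 25 h (right), in enterocytes and goblet cells, with the standard error of the fit as bars and open symbols for adjusted p of at least 0.05. Kdelr3 lies near 2 in both classes at both times, and Sec24d at 1.72 in enterocytes and 0.69 in goblet cells at 13 h.

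Untreated goblet cells already held more of most of these transcripts than untreated enterocytes of the same libraries. In a fit over both classes with the library as a block, 6 of the 9 genes were higher in DMSO goblet cells and 0 lower, against 17% of all 10458 genes being higher and 1893 lower. The median was 0.98 against -0.02. Sec24d was 2.22 ± 0.23 higher on the log2 scale (SE, edgeR, adjusted p = 2.99e-10), Sec23b 1.67 ± 0.15 (adjusted p = 3.67e-12) and Kdelr2 1.29 ± 0.08 (adjusted p = 1.75e-16). The DMSO libraries differed for Sec24d, whose value was 1.52 without DMSO replicate 1 and 2.83 without DMSO replicate 2. Tmed2 was higher by 0.99 ± 0.08 and Tmed10 by 0.98 ± 0.08. Kdelr1 passed narrowly (0.24 ± 0.09, adjusted p = 0.0436), and 11 of 13 alternatives did not call it. Under library totals its value was 0.08 (adjusted p = 0.577), and leaving out any single library ended the call. Sec13 (0.07 ± 0.13), Sec31a (0.07 ± 0.12) and Kdelr3 (0.97 ± 0.52, adjusted p = 0.156) gave no call.

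In the main fit, some of the coat, KDEL receptor and p24 genes responded less to tunicamycin in goblet cells than in enterocytes. The difference itself was tested. At 13 h the goblet response was lower for Sec24d by 1.07 ± 0.27 (SE, adjusted p = 0.0112), for Kdelr2 by 0.59 ± 0.11 (adjusted p = 0.000385), for Tmed2 by 0.53 ± 0.11 (adjusted p = 0.00118) and for Tmed10 by 0.48 ± 0.11 (adjusted p = 0.00399). These are 4 of 9 genes, against 3.33% of all genes with a lower goblet response. At 25 h 3 of 9 were lower, against 4.5%: Sec24d by 1.16 ± 0.30 (adjusted p = 0.00921), Sec23b by 0.70 ± 0.20 (adjusted p = 0.0201) and Tmed10 by 0.35 ± 0.11 (adjusted p = 0.0392). The difference for Kdelr3 was 0.28 ± 0.54 at 13 h and 0.43 ± 0.53 at 25 h, and for Kdelr1 0.04 ± 0.13 and -0.00 ± 0.13, with no call. The 13 h call was lost in 5 of 13 alternatives for Tmed10, 3 for Sec24d and 1 each for Kdelr2 and Tmed2. The 25 h call was lost in 8 of 13 for Tmed10. Of the 12 that gave an adjusted p, it was lost in 7 for Sec23b and 3 for Sec24d. Without DMSO replicate 1 none of the 4 differences at 13 h passed (Sec24d -0.33, adjusted p = 0.789; Kdelr2 -0.52, adjusted p = 0.0547; Tmed2 -0.42, adjusted p = 0.128; Tmed10 -0.41, adjusted p = 0.171). Without DMSO replicate 2 the Sec24d value at 13 h was -1.66. At 25 h 0 passed without DMSO replicate 1 (Sec24d -0.44, adjusted p = 0.640), without 25 h replicate 1 or without 25 h replicate 2, and 1 without DMSO replicate 2.

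In the class named tuft 0 of the 9 genes passed at 13 h or at 25 h, where 0.63% and 0.58% of all 6030 genes tested rose. At an unadjusted p below 0.05 there were 3 of the 9 genes at each time with edgeR, against 9.88% and 9.85% of all genes tested, and 1 and 2 with DESeq2, against 5.32% and 5.61%. Tmed2 was at 313 and 365 CPM in DMSO, 624 and 608 after 13 h, and 594 and 630 after 25 h (0.87 ± 0.24, SE, adjusted p = 0.167, and 0.86 ± 0.25, adjusted p = 0.201). Kdelr3 had 6 and 0 UMIs in DMSO, 9 and 14 after 13 h, and 3 and 12 after 25 h. Sec24d was at 11.3 and 16.6 CPM in DMSO, 43.3 and 23.7 after 13 h, and 12.7 and 23.2 after 25 h. The 12 to 27 cells per library held a mixed profile. Summed tuft markers were 39.3 to 386 CPM, against 1.15 to 2.39 in enterocytes and 0 to 4.75 in goblet cells. Summed enteroendocrine markers were 12.9 to 160 CPM, against 0.0766 to 0.688 in enterocytes and 0 to 1.54 in goblet cells. Goblet markers were at 425 to 6836 CPM, where enterocytes held 2350 to 3925, and enterocyte markers at 467 to 5223. Sums of different marker lists are not comparable in size.

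The mix of paralogs within the Sec24 and Sec23 families differed between treated and control enterocytes. Sec24d made up 5.64% and 8.05% of all Sec24a to Sec24d UMIs in DMSO enterocytes, 16.9% and 16.3% after 13 h, and 11.6% and 12.2% after 25 h. The exact 95% binomial interval of the highest control, 6.96 to 9.26%, lay below that of the lowest treated library, 9.87 to 13.6%. Intervals cover counting error only, and shares of raw UMIs compare libraries, not the amounts of different genes. Sec24a, another cargo-binding paralog, went from 43.2% and 39.0% to 27.2% and 26.6%, and in its own test it fell by 0.17 ± 0.06 at 13 h (adjusted p = 0.0362). Sec24c rose by 0.68 ± 0.06 (adjusted p = 2.35e-07) and Sec24b was at 0.08 ± 0.08 (adjusted p = 0.499). Sec23b went from 17.0% and 16.3% of Sec23 UMIs to 24.6% and 24.6% after 13 h and 22.8% and 22.6% after 25 h, while Sec23a changed by 0.14 ± 0.05 at 13 h (adjusted p = 0.0262).

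Since Kdelr3 was a small part, the shares of Kdelr1 and Kdelr2 must mirror each other, and a lower share is no fall in level: Kdelr1 itself rose at 13 h. Kdelr2 made up 49.1% and 49.7% of the KDEL receptor UMIs in DMSO enterocytes, 55.8% and 55.4% after 13 h, and 43.6% and 46.2% after 25 h. Kdelr1 held 50.2% and 49.6%, then 42.5% and 42.2%, then 54.4% and 51.8%. Kdelr3 held 0.674% and 0.754% in DMSO and 1.66% to 2.42% in treated enterocytes. In goblet cells Kdelr2 held 65.2% and 68.0% in DMSO and 55.0% and 58.2% at 25 h, and Kdelr1 31.2% to 41.2% over the 6 libraries. Sec24d held 31.7% and 21.5% of the goblet Sec24 UMIs in DMSO, 32.6% and 38.1% after 13 h, and 27.4% and 25.5% after 25 h, where the 25 h libraries lay between the controls. Sec31a held at least 99.0% of the Sec31 UMIs in every library of both classes.

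**Figure D3:**
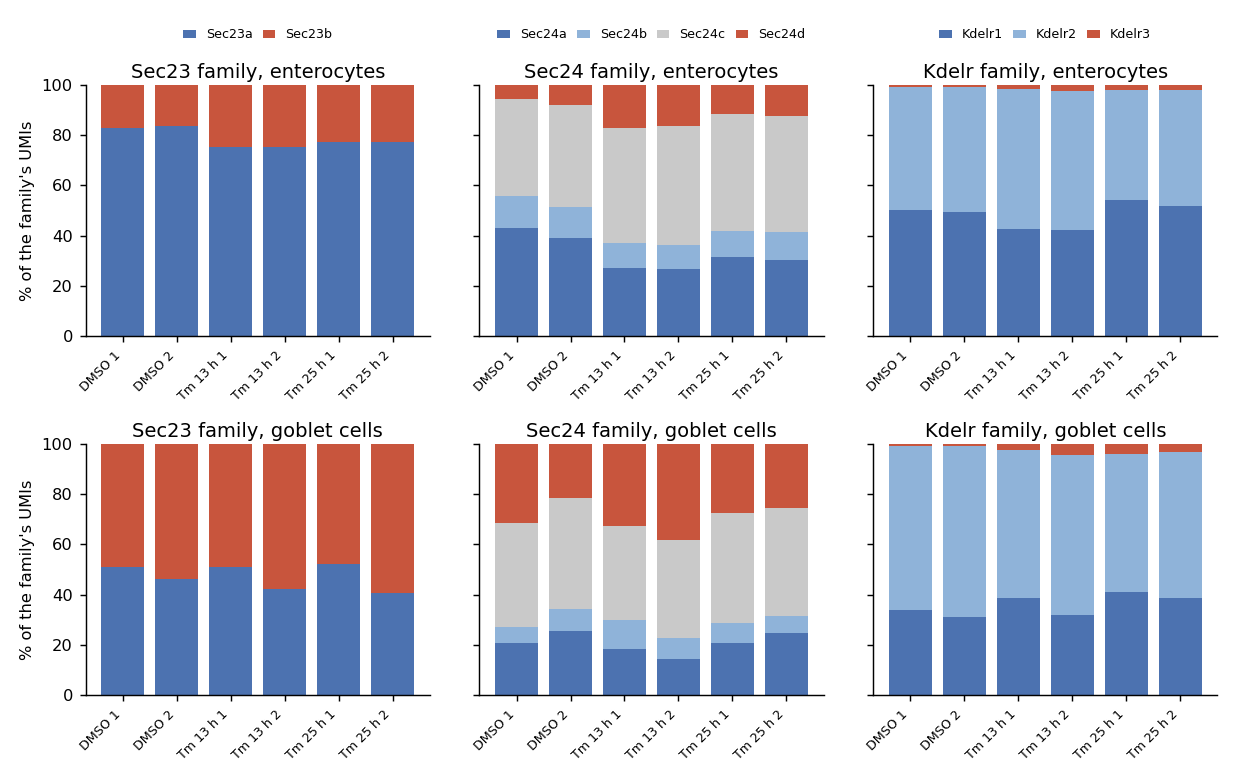
Share of each family's raw UMIs (stacked to 100%) held by each paralog in every library, for enterocytes (top) and goblet cells (bottom). In enterocytes Sec24d grows from 5.64% and 8.05% to 16.9% and 16.3% at 13 h, and Sec23b starts higher in goblet cells (49.0% and 53.9%) than in enterocytes (17.0% and 16.3%).

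Other genes of the same steps were counted from lists of pathway members, also chosen with earlier results of these data known. Of 15 other tested COPII genes, 8 rose and 1 fell in enterocytes at 13 h, when 23.8% of all 11145 genes tested rose and 2655 fell. Highest were Tmem39a (1.57), which binds the coat, Preb (0.74), the exchange factor for Sar1, Sec24c and Sar1a (0.59). Of 18 other cargo receptor and p24 genes 8 rose and 3 fell, with Lman1 (1.45), the lectin receptor for glycoproteins, Tmed3 (1.45), Bcap29 (1.26) and Tmed9 (1.24) highest. Of 17 COPI genes 11 rose and 1 fell, led by Cope (0.96), a coat subunit, and the GTPase Arf4 (0.64). Of 30 tether, SNARE and Rab genes 17 rose and 3 fell, led by the SNARE Bet1 (1.65), the tether Uso1 (1.06), the Golgi stacking protein Gorasp2 (0.99) and Scfd1 (0.93). The list medians were 0.24, 0.06, 0.22 and 0.22 on the log2 scale, against 0.68 for the 9 genes and 0.01 over all genes.

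At 25 h in enterocytes, where 26.1% of all genes tested rose, these lists gave 7 of 15 up and 4 down for COPII, 10 of 18 and 1 for cargo receptors, 4 of 17 and 3 for COPI, and 15 of 30 and 2 for tethers. The rising share of COPI was close to that of all genes. Of all 11145 genes tested 2696 fell at this time, a share that the falling COPII count is close to. From 13 h to 25 h 7, 7, 7 and 9 of them fell and 0, 3, 0 and 1 rose, against 10.9% and 10.4% of all genes. In goblet cells at 13 h 1 of 14, 6 of 16, 2 of 17 and 7 of 28 rose and 0 fell, against 10.8% of all genes rising, which the COPII count does not exceed and the COPI count is close to. Of all 7839 genes tested there 905 fell. Named among them were Lman1 (1.21), Tmed9 (1.00), Tmed3 (0.84) and Surf4 (0.82) of the cargo receptors. At 25 h 2, 8, 0 and 5 rose, against 15.8% of all genes, and 1, 0, 2 and 1 fell, against 1256 of all 7839 genes. Ergic1, a receptor of the ER to Golgi compartment, was highest at 1.64 and the Arf exchange factor Gbf1 lowest at -0.82. In DMSO 5 of 15, 6 of 17, 11 of 17 and 16 of 30 were higher in goblet cells, against 17% of all genes. There 3, 4, 0 and 0 were lower, against 1893 of all 10458 genes tested.

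**Figure D4:**
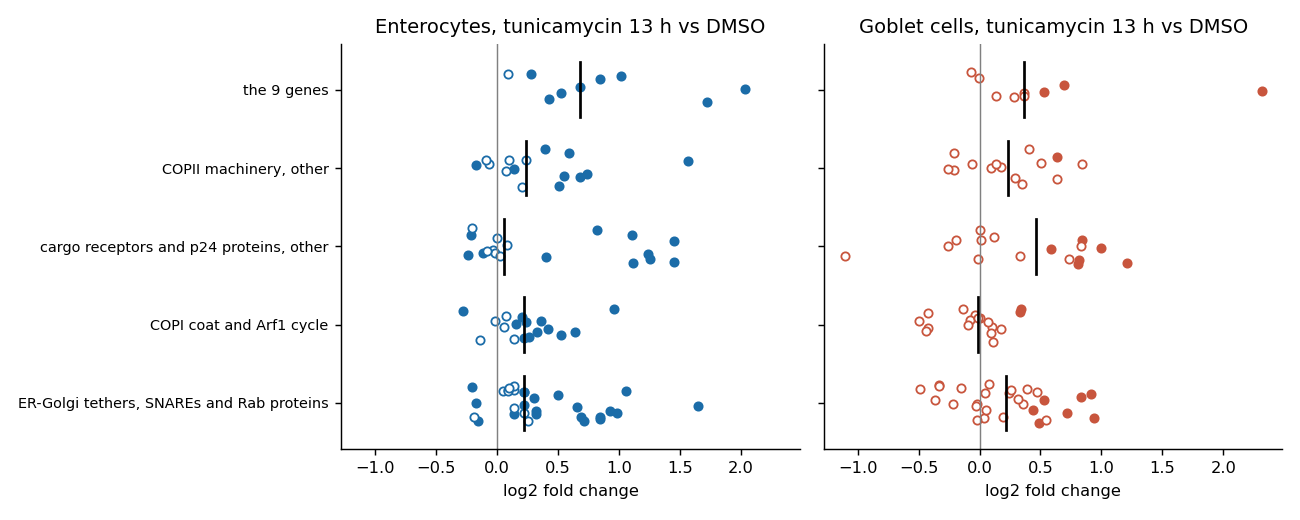
Log2 fold change at 13 h against DMSO of the 9 genes and of 4 lists of related genes, in enterocytes (left) and goblet cells (right), where each point is a gene, filled if its adjusted p was below 0.05, and the black line is the list's median. The medians in enterocytes are 0.68 for the 9 genes and 0.06 to 0.24 for the lists.

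Per cell, the summed count of the 9 genes was higher across the treated enterocytes. The sum mostly counts the abundant genes. Mean DMSO enterocyte levels were 292 CPM for Tmed10, 217 for Tmed2, 153 for Kdelr1 and 151 for Kdelr2. Those of Sec24d and Kdelr3 were 9.34 and 2.19. After each cell was thinned to 5000 UMIs, the median enterocyte held 4 and 5 UMIs of the 9 genes together in the DMSO libraries, 7 and 8 after 13 h, and 7 and 6 after 25 h. The share of enterocytes above 8 UMIs, the 90th percentile of DMSO cells, was 5.32% and 7.81% in DMSO, 35.2% and 38.9% after 13 h, and 27.6% and 28.7% after 25 h. In goblet cells the medians were 8 and 7 in DMSO, 11.5 and 11 after 13 h, and 11 and 10 after 25 h, and 9.28% and 5.88%, 31.9% and 27.1%, and 30.2% and 22.0% of cells lay above 13 UMIs. Thinning left out 2 to 13 enterocytes and 2 to 8 goblet cells per library below that depth. In unthinned counts the 9 genes were 0.0929% and 0.0944% of the median DMSO enterocyte, 0.148% and 0.153% after 13 h, and 0.135% and 0.130% after 25 h. The median goblet cell held 0.152% and 0.146% in DMSO and 0.206% to 0.216% in treated libraries. Per-cell values are relative to raw totals, which in goblet cells moved the median log2 change of all genes to 0.16 at 13 h and 0.13 at 25 h while summed goblet markers went from 197050 and 183509 CPM to 79666 to 121716, so goblet per-cell differences are not comparable in size with the TMM-scaled ones.

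**Figure D5:**
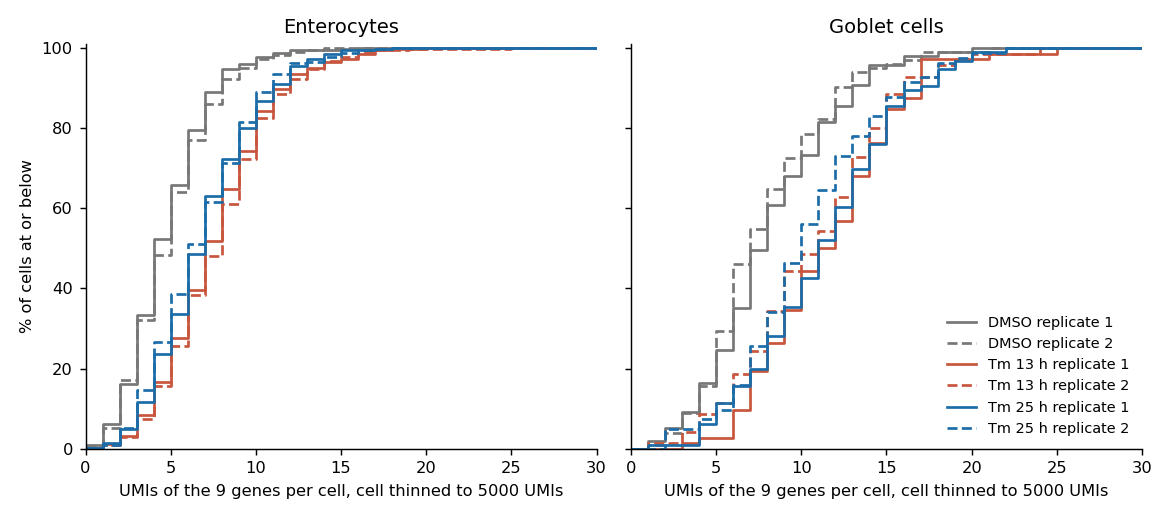
Cumulative share of cells (vertical, %) by the number of UMIs of the 9 genes together (horizontal) in cells thinned to 5000 UMIs, 1 line per library, for enterocytes (left) and goblet cells (right). Treated lines lie to the right of both DMSO lines over most of their range, with medians of 6 to 8 against 4 and 5 in enterocytes.

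For each gene the most similar of 4563 genes was found by the root mean square difference of centred log2 levels over 12 values, 6 libraries in enterocytes and in goblet cells. These values share libraries and depth, and the measure is a description with no test. Tmed2 was nearest to Tram1 (0.094), a protein of the ER translocation channel, and Spcs3 (0.13), a signal peptidase subunit. Sec31a was nearest to Nus1 (0.078), Tmed10 to Golgb1 (0.090), the Golgi tether giantin, Kdelr2 to Ccdc71l (0.11) and Kdelr1 to Tmem234 (0.095). Sec23b was nearest to Odf2l (0.16) and Gmppb (0.18), which makes GDP-mannose, and Sec13 to Rab18 (0.058). The nearest gene was at 0.33 for Sec24d (Slc39a7) and at 0.32 for Kdelr3 (Eif4ebp1). This distance grows with the size of a gene's changes and with counting noise, so it does not rank the 9 genes: Pearson's r over the same 12 values was 0.971 for Kdelr3 with Eif4ebp1 and 0.784 for Sec13 with Rab18.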

How the data were processed

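Raw UMI counts of 10x 3' V2 libraries were deposited by the authors in a single matrix, made with Cell Ranger against mm10 per the submitters' processing notes. The sources used here do not give the Cell Ranger version or the way classes were assigned. Library and class came from each cell name, and 12 barcodes occurred in more than 1 library and were kept apart. Symbols came from GENCODE vM21 (27645 of 27998 identifiers matched). Cells with at least 1000 UMIs, 500 genes and at most 25% mitochondrial counts were kept. The 96 removed cells failed on mitochondrial counts. No doublet caller was run. As an alternative 193 cells above 2 times the median UMIs of their library and class were left out.

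Counts were summed per library and class and tested with edgeR 4.0.16 in R 4.3.3 (filterByExpr, TMM, quasi-likelihood F test, Benjamini-Hochberg adjustment, threshold 0.05), with all 6 libraries in each fit and 3 residual degrees of freedom. All 9 genes passed the filter in each class. Class differences and the interaction of class and group came from a fit over both classes with the library as block. The scripts were tested on simulated data. Alternatives were DESeq2 1.42.0, library totals, no filter on low counts, other cell filters, each library left out and a replicate block. P-values rest on the spread between the 2 libraries of a group, pooled over groups and drawn toward the spread of other genes. Correlations of same-numbered deviations were between -0.085 and 0.021. Counting error in single genes pulls such values toward 0, so they do not settle whether replicate numbers pair the libraries.

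The genes and lists were chosen with earlier results of these data known. From each list up to 4 called genes with the largest change per comparison are named, with the paralogs of the 9 genes, Hspa5 and the 2 most similar genes per gene, of which some are left out for length. Protein sequences were not used here.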

Additional observations from a re-analysis of the deposited data

Results flagged for a closer look

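The response to tunicamycin differed between goblet cells and enterocytes, by the interaction of class and group in the edgeR fit over both classes, for 12 of 91 tested genes of the lists at 13 h and 9 of 91 at 25 h. Over all 10458 genes tested 503 and 738 differed, of which lower goblet responses were 3.33% and 4.5% of genes tested. Values are the goblet minus the enterocyte log2 response. Among the 9 genes they were -1.07 for Sec24d, -0.59 for Kdelr2, -0.53 for Tmed2 and -0.48 for Tmed10 at 13 h. At 25 h they were -1.16 for Sec24d, -0.70 for Sec23b and -0.35 for Tmed10.

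Among related genes the differences at 13 h were -0.65 for Tmed3, -0.44 for Tmed7, -0.66 for Cope, -0.34 for Arf5, -0.86 for Uso1 and -0.86 for Bet1. For the genes that check the treatment they were -1.75 for Hspa5 and -1.18 for Dpagt1. At 25 h they were -0.41 for Tmed3, -0.52 for Cope, -0.68 for Gbf1, -0.53 for Bet1 and -1.62 for Hspa5, and Ergic1 alone among these differed upward, by 1.23. Groups of 2 libraries are too small to tell which library is outlying, and leaving 1 out leaves a single library in its group. Without DMSO replicate 1 the Sec24d difference was -0.33 at 13 h and -0.44 at 25 h. At 13 h the values without that library were -0.52 for Kdelr2, -0.42 for Tmed2 and -0.41 for Tmed10.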

How the results depend on the processing

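All 22 calls of the 9 genes in enterocytes over time held in every alternative except the thinning, which was added after the data were seen, while 10 of 20 calls in goblet cells or between classes were lost in at least 1. Over single genes and settings 1228 kept their side of the threshold, 60 lost a call, 7 gained 1 and 0 reversed. Under DESeq2, members called were 0 in goblet cells between 25 h and 13 h (main 1, with 3 genes given no adjusted p), and 2 and 0 for the class difference in response at 13 h and 25 h (main 4 and 3, with 1 and 4 genes given none). Library totals gave 5 in goblet cells at 13 h and 1 for the 25 h class difference, and limiting mitochondrial counts to 10% or leaving out high-UMI cells gave 0 for goblet 25 h against 13 h and 1 for the 25 h class difference. Leaving out 1 library gave 0 to 1, 0 to 4 and 0 to 3 for these 3 counts, and 2 to 3 for goblet cells at 13 h. Enterocytes thinned to goblet totals gave 6, 4 and 2, from fewer UMIs by construction and from a single random draw. How far these values vary between draws was not tested. Calls were lost at 13 h for Kdelr1 (0.22) and Kdelr3 (from 2.03 to 1.44), at 25 h for Sec24d (from 0.90 to 0.40), Sec23b (0.27), Kdelr2 (0.25) and Sec31a (0.36), and between the times for Sec23b (-0.51), Sec31a (-0.12), Kdelr1 (0.20) and Kdelr2 (-0.29).

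Genes called over the whole table were 5307, 5601 and 2380 in enterocytes (13 h, 25 h, 25 h against 13 h), 3500, 3945 and 1253 with DESeq2, and 1682, 2163 and 618 thinned. In goblet cells they were 1754, 2491 and 274, and 818, 1221 and 159 with DESeq2. The DMSO class difference gave 3666 (DESeq2 2256), and the difference in response gave 503 and 738 (DESeq2 230 and 326). Without single libraries the goblet counts were 1033 to 1770, 1681 to 2522 and 139 to 249, the DMSO class difference 2268 to 3663, and the differences in response 224 to 527 and 373 to 706. In the class named tuft 47 genes were called at each time, 250 and 191 with no filter, 18 and 17 without high-UMI cells, and 32 to 159 and 29 to 81 without single libraries. The cause of these shifts was not tested. Library totals moved the median of all genes by over 0.1 in goblet cells (0.16 at 13 h, 0.13 at 25 h) and between classes (-0.18). The share of higher among called genes went from 48.4% to 68.4%, 49.6% to 63.8% and 48.4% to 33.5% there, and for the differences in response from 30.8% and 36.2% to 59.0% and 59.0% (DESeq2 51.3% and 49.1%).

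With a replicate block, members called were 8, 8 and 6 in enterocytes, 3, 3 and 1 in goblet cells, 6 in the DMSO class difference, 4 and 3 in the differences in response and 0 and 0 in the class named tuft, and genes called there at 25 h were 30. Whether replicate numbers pair the libraries was not settled. Low counts limit the precision for Kdelr3, with 5 UMIs in each DMSO goblet library, and for Sec24d, with 38 to 85 in goblet libraries.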
